A study of Mus musculus with 12 samples.

Results

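RNA newly made by macrophages during the last 35 min of a 45 min exposure to lipopolysaccharide (LPS, a component of the outer membrane of Gram-negative bacteria) was compared with RNA newly made by unstimulated cells. Of the 12 arrays of the series, 4 carry this comparison: the nascent RNA arrays of 2 independent experiments, 1 array per experiment for unstimulated cells and 1 for cells given LPS for 45 min. All cells were macrophages grown from bone marrow of C3H/HeN mice, a strain with a functional LPS receptor. They had been in culture for 17 days. Progenitors were expanded with interleukin 3, interleukin 6 and stem cell factor in L-cell conditioned medium, which supplies macrophage colony stimulating factor, then matured in that medium alone, and the adherent cells were plated without it for stimulation the next day. The labels give no number of mice per experiment. The unstimulated group received the uridine analogue 4-thiouridine (200 µM, for 35 min) but no LPS. The stimulated group received 100 ng/ml LPS for 45 min with the same analogue during its last 35 min. RNA that had taken up the analogue was tagged with biotin and purified on streptavidin beads, and this fraction is called nascent RNA. The RNA of the same cultures before purification is called total RNA, and it is used here only beside the nascent values, as are the nascent arrays taken after 270 min of LPS.

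LPS is bound by CD14 and MD-2 and recognised by Toll-like receptor 4, which signals through the adaptors MyD88 and TRIF to the transcription factors NF-kB, AP-1 and IRF3 and to the MAP kinases. Genes whose induction needs no new protein, called immediate early or primary response genes, respond first. Genes that depend on secreted interferon beta or on newly made factors follow later. Purified nascent RNA reports mostly on what was transcribed within the labelling window, whereas total RNA also holds transcripts made before stimulation.

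Affymetrix Mouse Gene ST 1.0 arrays gave 1 intensity per probe set, and levels below are log2 intensities. A difference is the mean log2 level of the stimulated pair of arrays less that of the unstimulated pair, and ± gives its standard error (SE) from limma. Arrays are numbered 1 and 2 by experiment, and a gene is called where its adjusted p is below 0.05. Across 19938 genes the values of both unstimulated nascent arrays correlated at r = 0.984 and those of both 45 min arrays at r = 0.9883. The interquartile range of array values was 2.642 and 3.004 in unstimulated arrays 1 and 2, and 2.501 and 2.238 at 45 min. Unstimulated array 2 therefore had the widest spread of the 4, and list counts that rest on single arrays are given below with those arrays named. A background level was taken as the 95th percentile of 1015 olfactory receptor genes on each array, which was 6.42 and 6.2 in unstimulated arrays and 6.49 and 6.77 at 45 min. Where the dimmer group lay under it on both arrays, the fold is a lower bound against it and is written "at least". All 11 macrophage markers measured, among them Csf1r, Adgre1, Cd68 and Lyz2, lay above background at both times. Of the markers of 7 other lineages that a marrow culture could hold, 0 were called changed. In these marker counts a gene is above background unless it lay under it on both arrays of the group. Mast cell markers were above background for 4 of 11 genes in unstimulated cells, neutrophil markers for 1 of 12, dendritic cell markers for 6 of 10, T and NK cell markers for 3 of 11, B cell markers for 1 of 9, erythroid and megakaryocyte markers for 2 of 6, and fibroblast markers for 5 of 10. Their part in the results was not tested. Of the 19938 genes, 8117 were under background on all 4 arrays.

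At an adjusted p below 0.05 (limma, Benjamini-Hochberg over all genes), 609 genes were higher at 45 min, 3.05% of those tested, and 1172 were lower, 5.88% of those tested. By measured values, 403 rose (2.02% of those tested) and 625 fell (3.13%) by at least 2-fold, and with the lower bound in place of the measured value where a group lay under background, 374 and 538 did. All 609 rises and all 1172 falls had the same sign in both experiments and groups that did not overlap. Over all genes 65.6% had the same sign in both experiments, 33% had both 45 min arrays above both unstimulated arrays and 22% had them below, so for called genes this follows largely from the call. Of the rises, 58 reached 8-fold as measured and 57 with the bounds, and 0 falls did. Of the called genes, 57 rises and 14 falls were under background in both groups. Where the experiment number was added as a block, 844 genes rose and 1838 fell. Leaving out unstimulated array 2 gave 393 rises and 256 falls, leaving out 45 min array 1 gave 408 and 453, and leaving out 45 min array 2 gave 343 and 284. Leaving out unstimulated array 1 gave 539 and 1510. In bulk RNA, a change in transcription per cell and a change in the share of cells that transcribe a gene cannot be told apart.

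**Figure D1:**
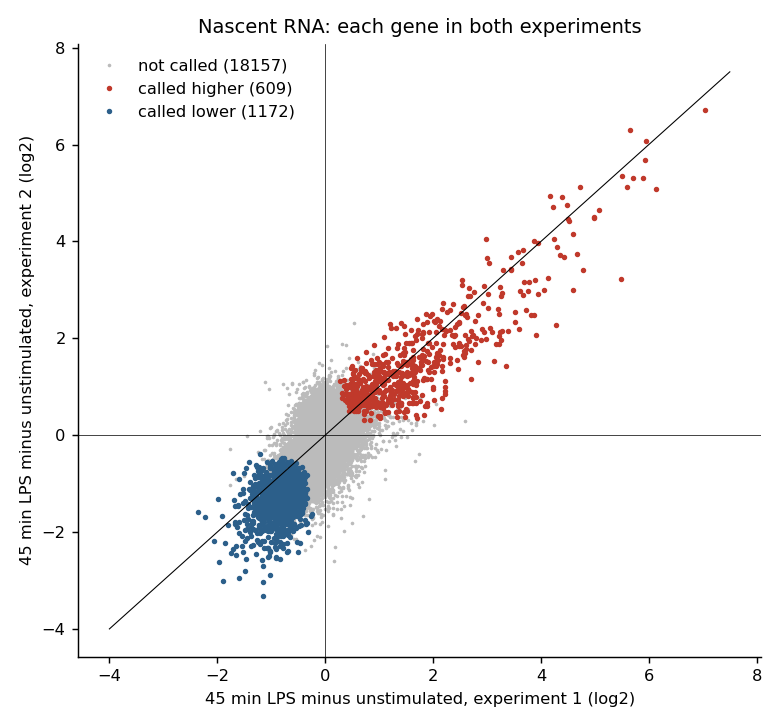
Each point is 1 of 19938 genes, with its 45 min minus unstimulated difference in nascent RNA (log2) in experiment 1 on the horizontal axis and in experiment 2 on the vertical axis. Called rises (609, red) lie around the diagonal line of equal change, while most called falls (1172, blue) lie below it: 1020 of them were larger in experiment 2.

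The rises and the falls differed in how evenly the experiments shared them. Among the called rises the median difference was 1.39 in experiment 1 and 1.22 in experiment 2, and 265 of 609 were larger in experiment 2. Among the called falls the medians were -0.8 and -1.25, and 1020 of 1172 were larger in experiment 2, the experiment whose unstimulated array had the wide spread. These medians describe genes picked by the same arrays and are not tests.

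Secreted messengers and early regulators made up most of the 25 largest rises. Tnfsf9, whose product (4-1BB ligand) co-stimulates T cells, stood at 5.66 and 6.13 in the unstimulated arrays of experiments 1 and 2 and at 12.69 and 12.84 after 45 min. Ccl2, a chemokine that draws monocytes, went from 5.78 and 5.84 to 11.73 and 11.91. Both genes were under background before LPS and their groups lay far apart. The rise was 6.87 ± 0.23 for Tnfsf9 (at least 87.6-fold, adjusted p = 1.44e-09) and 6.01 ± 0.25 for Ccl2 (at least 45.5-fold, adjusted p = 6.25e-09). Ptgs2, the inducible cyclooxygenase of prostaglandin synthesis, was at 6.62 and 6.85 in unstimulated cells and at 12.55 and 12.53 at 45 min. Il1b, which encodes the precursor of interleukin 1 beta, was at 6.94 and 7.01, then at 12.44 and 12.36. The experiments differed by at most 0.23 within a group for these genes, against rises of 5.81 ± 0.19 and 5.43 ± 0.23.

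**Figure D2:**
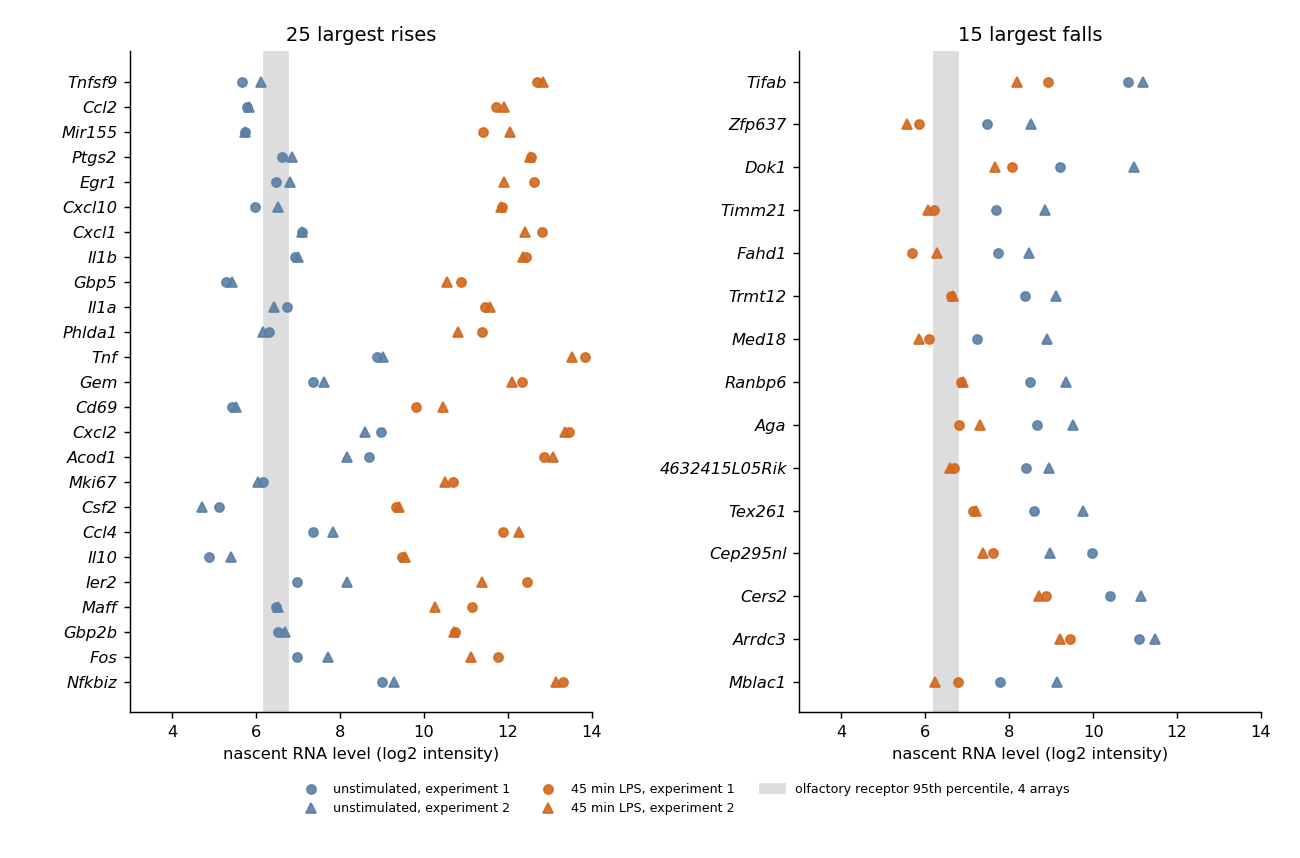
Nascent RNA level (log2 intensity) on each of the 4 arrays for the 25 largest called rises (left) and the 15 largest called falls (right), with unstimulated cells in blue, 45 min of LPS in orange, circles for experiment 1 and triangles for experiment 2. The grey band spans the background level of the 4 arrays (6.2 to 6.77), and the blue and orange points do not overlap, as the choice of the largest called changes largely fixes.

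Starting level set these genes apart from one another. Tnf, the founding member of its cytokine family, already stood at 8.88 and 9.04 in unstimulated nascent RNA and reached 13.85 and 13.53. Cxcl2, a neutrophil chemokine, went from 8.97 and 8.6 to 13.46 and 13.36. Nfkbiz, which encodes the nuclear regulator IkB zeta, went from 9.01 and 9.29 to 13.32 and 13.16. These 3 were well above background before LPS and rose by 4.73 ± 0.2, 4.62 ± 0.24 and 4.09 ± 0.19 (adjusted p = 6.96e-09, 4.38e-08 and 1.34e-08). By contrast, Csf2, the granulocyte-macrophage colony stimulating factor, was at 5.11 and 4.71, and Il10, the anti-inflammatory interleukin 10, at 4.88 and 5.41, all under background. They reached 9.34 and 9.42, and 9.48 and 9.55, at 45 min. Their measured rises of 4.47 ± 0.21 and 4.37 ± 0.31 correspond to at least 8.39-fold and at least 9.22-fold, because the level before LPS has only an upper bound.

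Several of the largest rises belong to no inflammatory pathway by name. Phlda1, a pleckstrin homology-like domain gene, rose from 6.31 and 6.17 to 11.39 and 10.82, by 4.86 ± 0.26 (at least 27.7-fold). Gem, a small GTPase of the RAD and GEM family, rose from 7.37 and 7.62 to 12.35 and 12.11. Mki67, whose product Ki-67 marks proliferating cells, rose from 6.18 and 6.04 to 10.69 and 10.51, by 4.49 ± 0.24 (at least 19.5-fold, adjusted p = 7.43e-08). Both unstimulated values of Mki67 were under background and both 45 min values well over it. Of 23 measured genes of DNA replication and mitosis it was the 1 rise and Mcm7 the 1 fall (4.35% each). Over all genes 3.05% rose and 5.88% fell. The list median was 0.04 against 0.11 over all genes. The list held 2 rises and 2 falls with the experiment as a block, 2 rises after quantile scaling, 4 falls without unstimulated array 1, and 0 falls without unstimulated array 2 or 45 min array 2. Top2a, the mitotic topoisomerase, differed by 0.07 and Ccna2, the cyclin of S phase, by 0.19, and neither was called.

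Immediate early genes, which respond without new protein, rose in large part. Of 29 Egr, Nr4a, Ier and related genes 17 rose (58.6%, against 3.05% of all genes) and 0 fell, with a median difference of 1.25. Egr1, a zinc finger factor induced by growth signals, went from 6.49 and 6.82 to 12.63 and 11.91, by 5.61 ± 0.24. Ier2 went from 6.97 and 8.16 to 12.45 and 11.38, and its arrays differed by over 1 within each group while the groups stayed apart (4.35 ± 0.52, adjusted p = 0.000153). The orphan nuclear receptor Nr4a1 rose by 3.29 ± 0.24, Csrnp1 by 3.16 ± 0.3, the antiproliferative gene Btg2 by 2.93 ± 0.31 and the oncogene Myc by 2.18 ± 0.31. Members that were not called include Srf (0.37), the factor that binds serum response elements, Klf6 (0.31) and Gadd45b (0.86). Of 15 AP-1 and small Maf genes 7 rose (46.7%) and 0 fell, with a median of 0.71. Without 45 min array 1, 4 rose. Maff rose from 6.49 and 6.53 to 11.16 and 10.26 (4.21 ± 0.29), Fos from 6.99 and 7.72 to 11.77 and 11.12 (4.09 ± 0.28) and Junb from 7.35 and 8.74 to 11.26 and 10.81 (2.99 ± 0.36). Jun was already at 12.07 and 12.17 in unstimulated cells, and its difference of 0.54 ± 0.38 was not called.

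Rises were frequent among genes of the NF-kB system. Bcl3, an atypical IkB gene, and Relb, a subunit gene, were measured but are not among the genes named here, and Nfkb1 was not measured. In the list 62.5% rose, against 3.05% of all genes. NF-kB dimers are held in the cytoplasm by IkB proteins, several of which are themselves NF-kB targets. Of 16 measured genes 10 rose and 0 fell, with a median of 1.66, and 9 or 10 rose without any 1 of the 4 arrays. Nfkbie rose by 3.52 ± 0.29, Nfkbid by 3.17 ± 0.33, Nfkbib by 2.9 ± 0.29 and Nfkbia by 2.72 ± 0.3. Nfkbia was the brightest of these, at 10.28 and 11.28 before and 13.56 and 13.43 after LPS. The subunit genes Nfkb2, Rela and Rel rose by 2.19 ± 0.2, 1.67 ± 0.26 and 1.26 ± 0.22. The kinases Ikbkb (0.04), Tbk1 (0.54) and Ikbke (0.65) were not called. No test of one gene's change against another's was made.

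Some of the genes that restrain the response rose at the same time. Of 19 signalling brakes 7 rose (36.8%) and 1, Dok1, fell (5.26%), with a median of 0.21. Over all genes 3.05% rose and 5.88% fell. Socs3, which blocks cytokine receptor signalling, went from 7.99 and 8.03 to 12.34 and 11.76 (4.04 ± 0.28, adjusted p = 1.11e-06). The ubiquitin-editing enzyme gene Tnfaip3, which encodes A20, rose by 2.43 ± 0.19, its partner Tnip3 by 2.4 ± 0.25 and the pseudokinase gene Trib1 by 1.61 ± 0.21. Socs1 (0.56) and Cyld (0.02) were not called. Of 11 dual specificity phosphatases, which switch off MAP kinases, 6 rose (54.5%) and 0 fell, with a median of 0.98. Dusp2 rose from 7.99 and 9.22 to 12.58 and 12.21 (3.79 ± 0.32), Dusp1 from 10.97 and 10.93 to 13.79 and 13.41 (2.65 ± 0.34) and Dusp4 by 2.18 ± 0.33, whereas Dusp6, which acts on ERK, differed by -0.62 and was not called. Among 13 factors that control mRNA decay 4 rose (30.8%) and 1 fell (7.69%, near the share of all genes), with a median of -0.01. The rises were led by Zfp36 (2.69 ± 0.28), whose product tristetraprolin binds AU-rich elements, and Zc3h12c (2.18 ± 0.22). The remaining tristetraprolin family members were not called higher: Zfp36l1 differed by 0.64 and was not called, and Zfp36l2 fell by 0.7 ± 0.19 (adjusted p = 0.038). The Zfp36l2 call was lost without any 1 of the 4 arrays, at differences of -0.55 to -0.86.

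Among secreted factors, rises were found in certain members of each family. Of 19 interleukins and colony stimulating factors 11 rose (57.9%, against 3.05% of all genes) and 0 fell, with a median of 1.29. Besides Il1b, Il1a, Csf2 and Il10, these included the receptor antagonist gene Il1rn, which went from 7.11 and 7.3 to 10.42 and 10.72 (3.36 ± 0.24), and Il6, which went from 3.67 and 4.72 to 7.07 and 6.88. Il6 was only just above background at 45 min, so its measured rise of 2.77 ± 0.28 amounts to at least 1.58-fold. Il12b rose by 1.55 ± 0.24 (at least 2.54-fold) and Ebi3, a subunit of interleukins 27 and 35, by 2.12 ± 0.21, while Il27, the partner subunit of the former, differed by 0.39 and was not called. Il12a, Csf3, Il33 and Lif were under background in both groups. Of 14 tumour necrosis factor family ligands 4 were called higher (28.6%) and 8 were under background in both groups. The called ligands were Tnfsf9, Tnf, Tnfsf15 (1.0 ± 0.21) and Tnfsf4, which lay under background on all 4 arrays and is given no change. Without 45 min array 2, 2 ligands were called. Tnfsf15 lost its call when either 45 min array was left out (0.94 and 1.05).

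Chemokines rose in both families. Of 14 CC chemokines 7 rose (50%, against 3.05% of all genes), 0 fell and the median was 1.16. Ccl4 went from 7.36 and 7.84 to 11.88 and 12.26 (4.47 ± 0.31), Ccl12 rose by 3.95 ± 0.28 (at least 7.5-fold), Ccl7 by 2.87 ± 0.29 and Ccl5 by 2.11 ± 0.35. Ccl9 and Ccl3 were bright in unstimulated cells (10.46 and 10.66, 11.93 and 11.43) and rose by 1.62 ± 0.18 and 1.7 ± 0.38. The Ccl3 call was lost without unstimulated array 2 (1.45) and without either 45 min array (1.51 and 1.89). Ccl17, Ccl24, Ccl8 and Ccl11 were under background at both times. Of 13 CXC chemokines 6 rose (46.2%) and 0 fell. They were led by Cxcl10, a ligand of CXCR3, which went from 5.97 and 6.52 to 11.87 and 11.83 (5.6 ± 0.22). Next came Cxcl1, which stood at 7.11 in both unstimulated arrays and reached 12.82 and 12.42 (5.51 ± 0.21). Cxcl9 and Cxcl11, the remaining CXCR3 ligands, were under background on all 4 arrays.

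Enzymes and acute phase genes of activated macrophages rose in part. Of 25 measured genes 14 rose (56%, against 3.05% of all genes) and 0 fell, with a median of 1.19. Acod1, which makes itaconate, went from 8.7 and 8.16 to 12.86 and 13.09 (4.54 ± 0.25). Saa3, a serum amyloid A gene, differed in level between experiments, at 8.63 and 7.56 before and 12.08 and 10.96 after LPS. Its rise was alike in each experiment (3.43 ± 0.45, adjusted p = 0.000364 by limma). This SE does not use the pairing, so it holds the difference in level. Arg2, the mitochondrial arginase, rose by 2.83 ± 0.26, the ornithine decarboxylase gene Odc1 by 2.55 ± 0.27, the superoxide dismutase gene Sod2 by 2.53 ± 0.17 and Gch1, whose product makes a cofactor of nitric oxide synthase, by 1.7 ± 0.23. The inducible nitric oxide synthase gene itself, Nos2, was under background on all 4 arrays, as were Lcn2 and Mmp9.

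Interferon beta and part of the genes it induces rose. Ifnb1, which encodes interferon beta, went from 5.29 and 5.28, under background, to 7.52 and 7.44, a rise of 2.2 ± 0.16 (at least 2.25-fold, adjusted p = 1.71e-06). Irf1 rose from 10.67 and 10.99 to 13.4 and 13.03 (2.38 ± 0.31). Irf7 (0.29) and Irf9 (0.06), which act downstream of the interferon receptor, were not called. In the list of interferon beta and IRFs 18.2% rose and 9.09% fell, against 3.05% and 5.88% of all genes. Of 11 genes of this list, 2 rose and 1, Irf8, fell; the Irf8 call was lost without unstimulated array 2 (-0.51) and without either 45 min array (-1.26 and -0.89). Of 23 interferon-stimulated genes 5 rose (21.7%, against 3.05% of all genes), 0 fell and the median was 0.29. Those were Ifi205 (1.98 ± 0.3, at least 2.45-fold), Ifit1 (1.76 ± 0.48), Ifit2 (1.4 ± 0.29), Rsad2 (1.35 ± 0.36) and Ifih1 (1.02 ± 0.24). Without either unstimulated array 3 were called, and without 45 min array 2 only Ifi205 was. Mx1 (-0.53), Oas1a (-0.05) and Usp18 (-0.23) were not called. Guanylate binding proteins, GTPases that act on membranes of intracellular pathogens, gave larger rises. In their list with immunity-related GTPases 4 of 9 were called higher (44.4%). Gbp5 went from 5.29 and 5.44 to 10.89 and 10.55 (5.36 ± 0.22, at least 21.2-fold), Gbp3 from 6.5 and 6.74 to 9.93 and 10.17 (3.43 ± 0.24) and Gbp7 from 7.19 and 7.17 to 8.81 and 8.43 (1.44 ± 0.27). Gbp7 was not called without 45 min array 1 (1.25). The fourth, Gbp11, was under background on all 4 arrays. Gbp2b, outside that list, rose by 4.14 ± 0.19 from 6.52 and 6.69 to 10.75 and 10.73. These genes share long stretches of sequence, so probe sets may share signal.

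At the level of LPS recognition the receptor and its co-receptor moved in opposite directions. Cd14 rose from 9.64 and 10.37 to 12.9 and 12.34 (2.62 ± 0.36, adjusted p = 0.000521). Tlr4 fell from 11.09 and 11.35 to 9.94 and 9.76, by 1.37 ± 0.21 (adjusted p = 0.00107). Neither gene's groups overlapped, and Ly96, which encodes MD-2, differed by 0.84 and was not called. Of 25 Toll-like receptors and adaptors 4 rose (16%, against 3.05% of all genes) and 2 fell (8%, near the 5.88% of all genes). The median was 0.09, against 0.11 over all genes. Tlr2 rose by 1.9 ± 0.21, Myd88 by 1.37 ± 0.29 and Tlr1 by 1.12 ± 0.29. Tifab, an inhibitor of the adaptor TIFA, went from 10.82 and 11.2 to 8.93 and 8.19 (fell by 2.45 ± 0.32). This was the largest fall among called genes whose higher group was at or above the median level. Without unstimulated array 1, 2 rose: Tlr1 (0.85) and Myd88 (0.86) were then not called. The call was also lost for Tlr1 when 45 min array 2 was left out (0.8), and for Myd88 when 45 min array 1 was (1.23). Ticam1, which encodes TRIF, Irak1 and Traf6 were not called.

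Surface molecules and receptors followed. Of 18 adhesion and co-stimulation genes 12 rose (66.7%, against 3.05% of all genes) and 0 fell, with a median of 1.1. Cd69, an early activation marker, went from 5.42 and 5.53 to 9.81 and 10.45 (4.65 ± 0.34, at least 14.1-fold). Cd40 rose from 7.12 and 6.83 to 10.57 and 10.52 (3.57 ± 0.22), Icam1 from 8.7 and 9.02 to 12.46 and 11.99 (3.36 ± 0.26) and the adaptor gene Traf1 by 3.42 ± 0.27. Clec4e, a C-type lectin receptor for mycobacterial glycolipid, went from 10.24 and 10.1 to 13.18 on both arrays (3.01 ± 0.17). Cd80 (0.66) and Cd86 (1.0) were not called. Of 19 chemoattractant and other G protein coupled receptors 7 rose (36.8%). They were led by Gpr84, a receptor for medium-chain fatty acids, at 3.04 ± 0.41, and by Ccrl2 at 2.32 ± 0.21. In that list 2 genes fell (10.5%, against 5.88% of all genes). These were Ptger2 and Cxcr4, and 0 fell when unstimulated array 2 or 45 min array 2 was left out, 1 when 45 min array 1 was and 3 when unstimulated array 1 was.

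Genes on both sides of the cell death decision rose together. In their list 31.2% rose, against 3.05% of all genes. Of 16 survival and apoptosis genes 5 rose and 0 fell, and 5 rose without each of the 4 arrays in turn. Cflar, which blocks caspase 8, rose by 2.24 ± 0.25 and the inhibitor of apoptosis gene Birc3 by 1.65 ± 0.22. The death receptor gene Fas rose by 2.06 ± 0.24 and the BH3-only genes Pmaip1 and Bcl2l11 by 2.2 ± 0.21 and 1.74 ± 0.21. Mcl1 (0.12) and Xiap (0.11) were not called.

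Nuclear regulators held single genes with large rises. Of 23 chromatin genes and co-factors 5 rose (21.7%, against 3.05% of all genes), with a median of 0.27, and 2 or 3 rose without 45 min array 1 or 2. Kdm6b, the histone H3 lysine 27 demethylase JMJD3, went from 8.39 and 7.73 to 12.06 and 11.54 (3.74 ± 0.25, adjusted p = 7.35e-07), whereas its paralogue Kdm6a (0.16) and the methyltransferase gene Ezh2 (0.47) were not called. Of 67 Mediator, TFIID and general transcription factor genes 2 rose (2.99%), near the share of all genes. Med21, a subunit of the Mediator middle module, went from 7.23 and 7.55 to 10.8 and 11.34 (3.68 ± 0.34, adjusted p = 1.71e-05), and Gtf2b, which encodes TFIIB, from 10.67 and 10.5 to 12.14 and 12.15 (1.56 ± 0.19). In the same list 6 genes fell (8.96%, against 5.88% of all genes), and 13 with the experiment as a block. The list's median unstimulated level was 8.38, and 570 of 3987 genes with mean levels of 7.22 to 8.61 fell, a larger share. The fall of Med18, of the Mediator head, from 7.23 and 8.89 to 6.08 and 5.86 was called without each array, but the number of falls was 12 without unstimulated array 1, 1 without that of experiment 2, and 2 without either 45 min array. Of 22 myeloid transcription factors 3 rose (13.6%) and 2 fell (9.09%). Id3, an inhibitor of helix-loop-helix factors, went from 5.79 and 6.5 to 10.07 and 8.78 (3.28 ± 0.38) and Tfec rose by 2.05 ± 0.24, while Cebpg fell by 1.2 ± 0.2. The other fall, of Cebpa, was lost when some arrays were left out: 1 gene fell without unstimulated array 2 or either 45 min array, and 5 fell with the experiment as a block. Spi1, which encodes PU.1, differed by 0.55 and Cebpb by 1.01, and neither was called.

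Metabolic and stress lists were compared with the 3.05% of all genes that rose. In sterol synthesis 4 of 18 genes rose, 22.2% (2 without unstimulated array 1 or 45 min array 2), led by the isopentenyl isomerase gene Idi1 at 2.23 ± 0.25. Among 20 glycolysis and hypoxia genes 1 (5%), the vasodilator gene Adm, rose (1.56 ± 0.21, at least 2.04-fold), and Hk2 (0.97), Slc2a1 (0.96) and Hif1a (10.46 and 10.36, then 10.31 and 10.5) were not called. In this list 2 rose without unstimulated array 2 and 2 fell without unstimulated array 1. In the unfolded protein and integrated stress response 4 of 20 rose (20%) and 1 fell, and 2 rose and 0 fell without unstimulated array 2. Ppp1r15a, also called GADD34, rose by 2.52 ± 0.28 and the heat shock gene Hspa1a by 1.9 ± 0.2, while Ddit3 (0.35), Atf4 (0.31) and Hspa5 (0.63) were not called. The cystine transporter gene Slc7a11 rose by 1.75 ± 0.2 among 16 antioxidant genes, of which 2 rose in all (12.5%, with 1 without unstimulated array 1 or either 45 min array), and Hmox1 (0.13) and Gclm (-0.36) were not called. Of 15 Notch and Hes genes 0 were called by limma in either direction.

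The list plot sets these groups beside one another and beside the lists that fell.

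**Figure D3:**
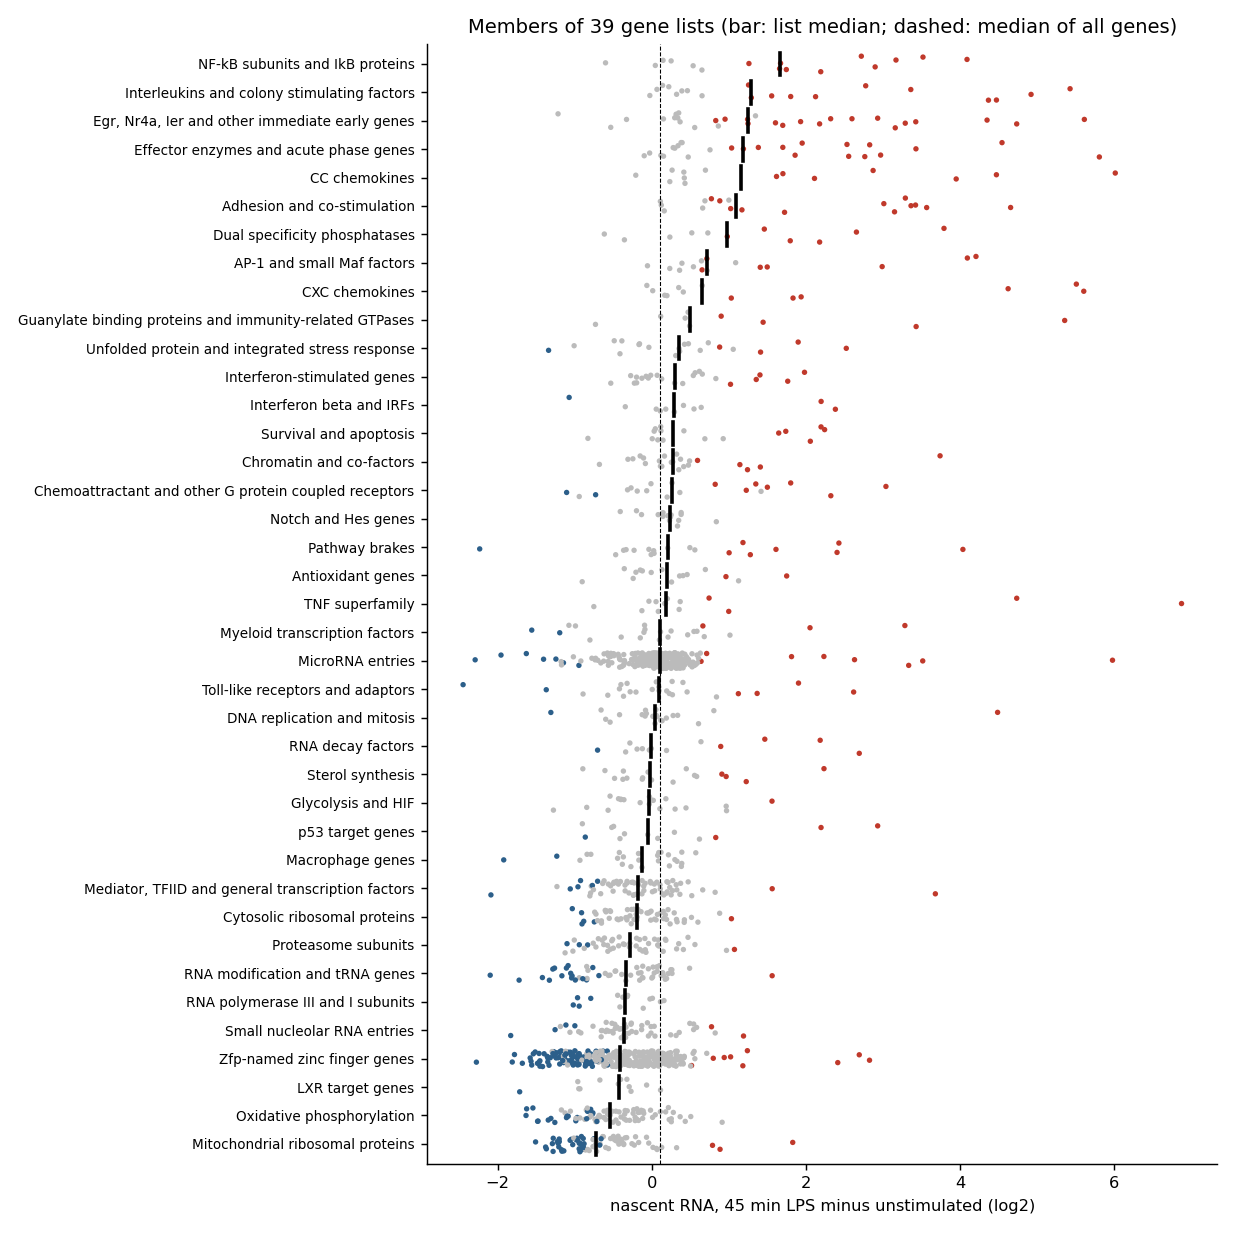
Each point is a member of 1 of 39 gene lists, with its nascent RNA difference at 45 min (log2) on the horizontal axis, red where called higher, blue where called lower and grey where not called. Black bars are list medians, from 1.66 for NF-kB subunits and IkB proteins at the top to -0.73 for mitochondrial ribosomal proteins at the bottom, and the dashed line is the median of all genes (0.11).

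MicroRNA genes were represented by 296 entries, of which 163 were under background in both groups. A probe set of a microRNA gene on this array can pick up its long primary transcript, so these values say nothing of the mature microRNA. Of these entries 8 rose (2.7%) and 7 fell (2.36%), near or below the 3.05% and 5.88% of all genes, and the number of falls was 12 with the experiment as a block, 4 without 45 min array 1 and 3 without that of experiment 2. Mir155 rose most, from 5.75 in both unstimulated arrays to 11.4 and 12.05 (5.98 ± 0.35, at least 42.6-fold, adjusted p = 1.67e-07). Mir222 rose from 8.66 and 7.84 to 11.64 and 11.89 (3.51 ± 0.26) and its neighbour Mir221 from 9.79 and 9.39 to 12.79 and 13.05 (3.33 ± 0.29). Mir191 rose from 6.97 and 7.68 to 10.02 and 9.89 (2.63 ± 0.22). Mature microRNAs recognise targets mainly through the seed, bases 2 to 8. The RefSeq sequences (GRCm38.p6) of the 4 induced genes are shown because the pair from the X chromosome shares a seed, with seeds in capitals.
mmu-miR-155-5p: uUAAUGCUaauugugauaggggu
mmu-miR-221-3p: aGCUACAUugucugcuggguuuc
mmu-miR-222-3p: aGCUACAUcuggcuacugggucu
mmu-miR-191-5p: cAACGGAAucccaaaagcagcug
The 3p strands of miR-221 and miR-222 carry the same seed, GCUACAU. Both lie on the minus strand, at chrX:19146307-19146329 and chrX:19146901-19146923. The strand miR-155-5p lies at chr16:84714143-84714165 and miR-191-5p at chr9:108568325-108568347, both on the plus strand.

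The 15 largest falls were smaller than the 25 largest rises and led by genes of varied function. After Tifab came Zfp637, a zinc finger gene, which went from 7.46 and 8.51 to 5.86 and 5.56, under background (fell by 2.28 ± 0.3, at least 2.56-fold, adjusted p = 0.000384). Timm21, of the mitochondrial import machinery, went from 7.69 and 8.86 to 6.2 and 6.06. Cers2, the ceramide synthase of very long chains, went from 10.4 and 11.13 to 8.87 and 8.72 (fell by 1.97 ± 0.26). Arrdc3, an arrestin-domain gene, was bright before LPS, at 11.1 and 11.48, and stood at 9.44 and 9.2 after it (fell by 1.97 ± 0.2, adjusted p = 4.19e-05). For 14 of the 15 genes, all but Cep295nl, the unstimulated level was higher in experiment 2 than in experiment 1. Dok1, an adaptor that restrains tyrosine kinase signalling, showed this most, at 9.21 and 10.98 before LPS and 8.06 and 7.67 after. Its fall of 2.23 ± 0.49 lost its call when unstimulated array 2 (-1.35) or 45 min array 2 (-2.04) was left out, and that of Mblac1 when the latter was (-1.69). The others were called without each array in turn, which follows largely from picking the largest falls on these same arrays. Most of all called falls lost their call under at least some alternative, as given in the closing section.

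Among the lists, that of the mitochondrial ribosome had the largest share of falls. The mitochondrial ribosome translates the few proteins encoded in mitochondrial DNA, and its own proteins are nuclear-encoded. Of 77 of these genes 33 fell (42.9%) and 3 rose, with a median difference of -0.73. Over all genes 5.88% were lower and the median was 0.11. Falls were more frequent at this list's level: its median unstimulated level was 7.96, and 570 of 3987 genes with mean levels of 7.22 to 8.61 fell. Mrps17 went from 7.89 and 8.4 to 6.96 and 6.59 (fell by 1.37 ± 0.23) and Mrpl40 from 7.59 and 7.97 to 6.28 and 6.7 (fell by 1.29 ± 0.22, at least 2.22-fold). Mrpl52 went the other way, from 7.76 and 8.13 to 9.83 and 9.71 (rose by 1.83 ± 0.23, adjusted p = 0.000238). The number of falls in this list was 18 after quantile scaling, 35 and 5 without unstimulated array 1 or 2, and 9 and 8 without 45 min array 1 or 2. The number of rises was 1 without unstimulated array 1 or either 45 min array. Of 81 genes of oxidative phosphorylation 19 fell (23.5%) and 0 rose, with a median of -0.54. Their median unstimulated level was 8.27, within the same level range. Ndufs3, a core subunit of complex I, went from 9.62 and 9.79 to 8.11 and 8.05 (fell by 1.63 ± 0.2, adjusted p = 0.000193). Without unstimulated array 2 the falls in this list numbered 4, and without 45 min array 1 or 2 they numbered 5 and 6.

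Genes that modify RNA and the zinc finger family also held many falls, and their counts also depended on single arrays. Of all genes 5.88% fell. The median unstimulated levels of these lists were 7.9 and 7.65, and 570 of 3987 genes with mean levels of 7.22 to 8.61 fell. Of 55 RNA modification and tRNA genes 17 fell (30.9%) and 1 rose (0 without unstimulated array 1 or 45 min array 1), with a median of -0.34. Trmt12, which makes wybutosine in tRNA, went from 8.37 and 9.11 to 6.61 and 6.67 (fell by 2.1 ± 0.24, adjusted p = 9.79e-05), and Mettl17 fell by 1.72 ± 0.24. The falls numbered 7 without unstimulated array 2 and 7 and 6 without the 45 min arrays of experiments 1 and 2. Of 317 genes with Zfp names 88 fell (27.8%) and 9 rose (2.84%), with a median of -0.41. Zfp759 went from 8.01 and 8.49 to 6.41 and 6.47, under background, a measured fall of 1.81 ± 0.24 (at least 3.07-fold). Zfp558 rose by 2.82 ± 0.23 and Zfp719 by 2.41 ± 0.2, beside Zfp36, which is no zinc finger repressor but the decay factor above. The falls in this list numbered 35 without unstimulated array 2 and 53 and 35 without the 45 min arrays, and the rises 5 without unstimulated array 1 or either 45 min array. Of 14 RNA polymerase I and III subunits 4 fell and 0 rose, of which Polr3k (fell by 1.02 ± 0.18) was called without each array. The count was 2 without unstimulated array 2 or 45 min array 1, and 1 without 45 min array 2.

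Other housekeeping complexes and macrophage genes had shares of falls near that of all genes (5.88%). Of 59 cytosolic ribosomal proteins 5 fell (8.47%) and 1 rose. The falls numbered 11 with the experiment as a block, 11 without unstimulated array 1, 1 without unstimulated array 2 and 0 without either 45 min array. Of 48 proteasome subunits 3 fell (6.25%) and 1 rose, with 9 falls under the block, 8 without unstimulated array 1, 1 without 45 min array 1 and 0 without either of the remaining arrays. Their medians were -0.2 and -0.29. Of 25 macrophage genes 2 fell (8%) and 0 rose, with a median of -0.13. Csf1r, the receptor for macrophage colony stimulating factor, stood at 11.78 and 11.94 before and 12.24 and 11.66 after LPS, and Adgre1, a macrophage surface receptor gene, at 10.09 and 10.32 before and 10.5 and 10.34 after. The groups of Csf1r overlapped, those of Adgre1 nearly did, and neither gene was called. Trem2, a lipid receptor, fell by 1.92 ± 0.54 (adjusted p = 0.0405), and this call was lost without any 1 of the 4 arrays, at differences of -1.73 to -2.12. Cd300lb fell by 1.23 ± 0.33 and was called without unstimulated array 1 alone. In all, 3 of the 25 fell without that array, 0 without any other, and 6 with the experiment as a block. Of 12 targets of the liver X receptor 1 fell (8.33%), the desaturase gene Scd2, which fell by 1.72 ± 0.29. The count was 4 under quantile scaling or with the experiment as a block and 3 without 45 min array 1. Of 13 p53 targets 3 rose and 1, Trp53inp1, fell, with a median of -0.05, and 3 fell with the block, 2 without unstimulated array 1, and 0 without unstimulated array 2 or 45 min array 2. Rises were thus 23.1% of the p53 targets, against 3.05% of all genes, and falls 7.69%, against 5.88%. The p53 list held 4 rises with the block and 2 after quantile scaling. Of 54 small nucleolar RNA entries 2 rose (3.7%) and 4 fell (7.41%), with a median of -0.36. The falls were 9 without unstimulated array 1 and 2 without either 45 min array, and the rises were 0 when any 1 of these 3 arrays was left out.

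Calls depended on the level of a gene, and differently for rises and falls. Genes were split into 5 groups of like size by their mean level over the 12 arrays. In the brightest group (8.61 to 13.83) 320 of 3988 genes rose and 310 fell. In the next (7.22 to 8.61) 127 of 3987 rose and 570 fell, and the median difference was -0.252. After quantile scaling of the nascent arrays that group held 182 rises and 321 falls with a median of -0.034, and without unstimulated array 2 it held 100 rises and 118 falls with a median of -0.174. In the dimmest group 24 rose and 11 fell. Over all genes, quantile scaling gave 600 rises and 878 falls, and 513 of the 609 rises and 795 of the 1172 falls were also called under it. How much the differing spread of the arrays contributed to the falls was not tested beyond these values.

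**Figure D4:**
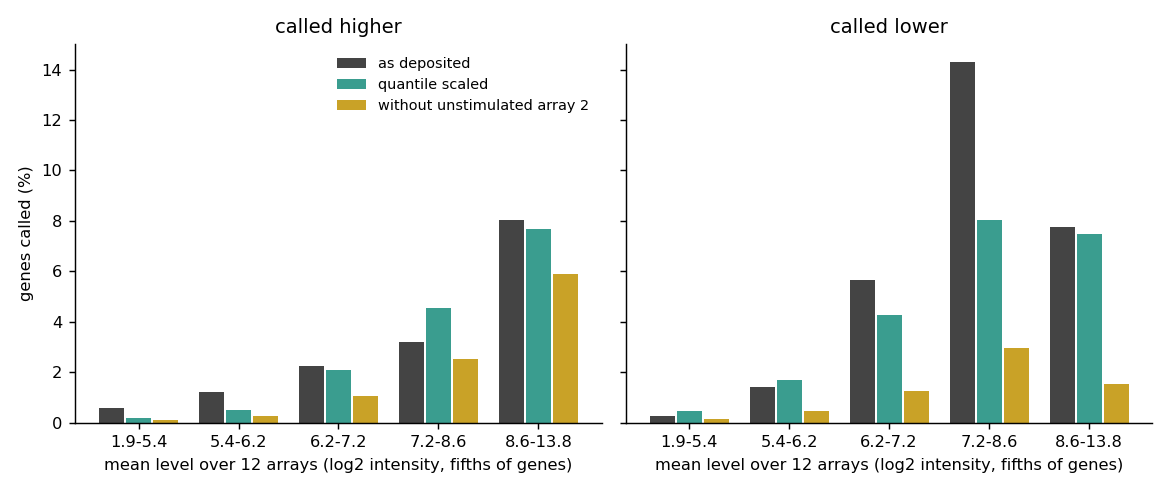
Share of genes (%) called higher (left) and lower (right) at 45 min in nascent RNA, by group of mean level over 12 arrays (log2 intensity), for values as deposited, after quantile scaling and without unstimulated array 2. In the group from 7.22 to 8.61 the number of falls was 570 as deposited, 321 after quantile scaling and 118 without that array, while rises were most frequent in the brightest group under all 3 settings.

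The same stimulus was read in total RNA of the same cultures and in nascent RNA at 270 min. In total RNA at 45 min 132 genes were higher (0.662%) and 4 lower (0.0201%), and in nascent RNA at 270 min 1768 were higher (8.87%) and 2827 lower (14.2%). The 270 min comparison shares its unstimulated arrays with the 45 min one, and total RNA comes from the same cultures, so their values are set side by side and no overlap is counted. Several immediate early genes no longer differed from unstimulated cells by a called amount at 270 min. Egr1 rose by 5.61 in nascent and by 4.72 in total RNA at 45 min and differed by -0.07 at 270 min, where it was not called. Fos showed 4.09, 3.28 and -0.26, and Maff 4.21, 2.56 and 0.82, with the 270 min values not called. Il10 and Ifnb1 were also not called at 270 min (0.46 and 0.06 as measured), after measured nascent rises of 4.37 and 2.2 at 45 min. Both were under background before LPS and had no mean level over it at 270 min, so their 270 min values give no change.

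A further set of early risers had larger differences at 270 min than at 45 min. Cxcl10 differed by 5.6 at 45 min and 7.02 at 270 min in nascent RNA, Gbp5 by 5.36 and 7.18, Mir155 by 5.98 and 7.17, Cd69 by 4.65 and 6.88 and Il1a by 4.92 and 6.67. Of these, Gbp5, Mir155 and Cd69 were under background before LPS, so their differences are as measured, with bounds at 270 min of at least 75.4-fold, 97.7-fold and 66.1-fold. Il6, also under background before LPS, had measured differences of 2.77 at 45 min (at least 1.58-fold) and 8.79 at 270 min (at least 102-fold). Ccl5 was 2.11 and 5.48 higher. The interferon-stimulated list, with 5 of 23 called at 45 min, had 23 of 23 called higher at 270 min with a median of 3.41. Nos2, under background before LPS and at 45 min, had a measured difference of 5.03 at 270 min (at least 28.6-fold). Tnfsf9 had the reverse order, with measured differences of 6.87 at 45 min and 3.63 at 270 min (at least 87.6-fold and 9.29-fold), as did Phlda1 with 4.86 and 2.18 (at least 27.7-fold and 4.32-fold). The difference between the stimulated times was not tested here. Among the largest falls, Arrdc3 was lower by 1.97 at 45 min and by 4.18 at 270 min in nascent RNA, whereas in total RNA at 45 min its difference of -0.78 was not called. None of the 15 largest falls was called in total RNA at 45 min. Only 0.0201% of all genes were called lower there, so this says little about these 15.

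**Figure D5:**
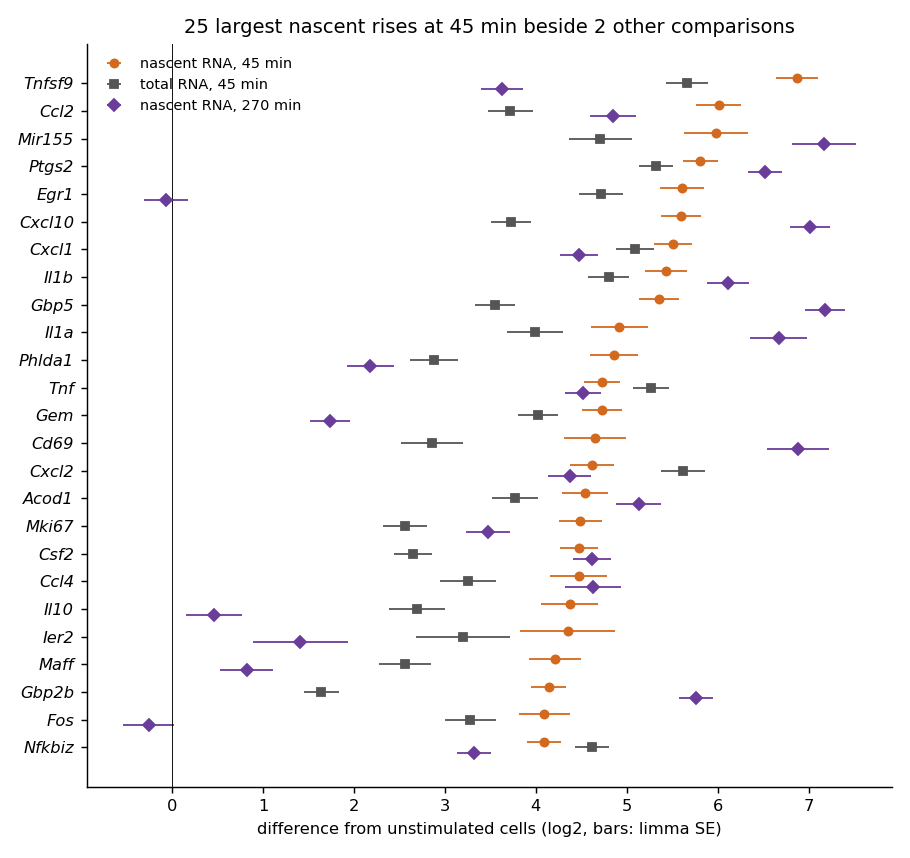
Differences from unstimulated cells (log2, bars are limma's SE) for the 25 largest nascent rises at 45 min: nascent RNA at 45 min (orange circles), total RNA at 45 min (grey squares) and nascent RNA at 270 min (purple diamonds). Egr1, Fos, Il10 and Maff lie near 0 at 270 min (-0.07, -0.26, 0.46 and 0.82), while Gbp5, Cxcl10 and Mir155 lie highest at 270 min (7.18, 7.02 and 7.17). All points are measured differences, also for genes under background before LPS. The mean level of Il10 at 270 min was not over background either.

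Whether the nascent response differed from the total RNA response was tested on the nascent minus total difference of each culture. By limma 95 genes had a higher response in nascent RNA (0.476% of those tested) and 113 a lower one (0.567%), and with the experiment as a block 289 and 816. Saa3 rose by 3.43 in nascent and differed by 0.6 in total RNA, a difference of 2.83 ± 0.24 at adjusted p = 4.24e-06. Med21 showed 3.68 against 1.04 (2.63, adjusted p = 8.31e-05), Gbp2b 4.14 against 1.64 (2.5), the proteoglycan gene Srgn 3.3 against 0.83 (2.47), the fatty acid binding protein gene Fabp3 3.54 against 1.12 (2.42) and Ccl2 6.01 against 3.72 (2.3), as measured, since it was under background before LPS. In the other direction the most negative were Tifab (-2.45 against -0.35), Zfp637 (-2.28 against -0.19), Timm21 (-2.14 against -0.08), Trem2, Echs1 and Aga, with differences of -1.9 to -2.1. Tnfaip3 is the case of a riser with a smaller nascent response, 2.43 in nascent and 3.7 in total RNA (-1.27, adjusted p = 0.00926). Tnf (4.73 against 5.27) and Cxcl2 (4.62 against 5.62) had differences of -0.54 and -1.0 that were not called. These counts rest on single cultures. Leaving out 45 min culture 1 gave 0 and 0 by limma (1561 and 1133 at an unadjusted p below 0.05, against 843 and 1525 with all cultures), and leaving out 45 min culture 2 gave 7 and 0. Leaving out unstimulated culture 1 gave 380 and 1350, and unstimulated culture 2 gave 202 and 121. Quantile scaling within each fraction gave 42 and 15, and centring each array on its median 44 and 81.

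Promoter sequence was the first property examined that played no part in the calls. RefSeq windows (GRCm38.p6, 250 bases before to 50 after the start) were at hand for 15562 genes tested. The kB consensus, the decameric site of NF-kB searched on both strands, was in 18% of 467 called rises and in 24.4% of the 41 that rose at least 8-fold as measured, against 6.68% of 958 called falls and 9.18% of all windows. TATAAA on the given strand, 40 to 20 bases before the start, was in 3.85% of the rises, 17.1% of those of at least 8-fold, 0.731% of the falls and 2.6% of all. TGANTCA, the AP-1 site, was in 6.64% of the rises, 12.2% of those of at least 8-fold, 4.38% of the falls and 6.97% of all. TGACGTCA, the cAMP response element, was in 3.64%, 2.44%, 2.71% and 2.5% in the same order, the CArG box in 1.71%, 0 of 41, 0.522% and 1.43%, and GAAANNGAA, the core of interferon response elements, in 10.3%, 14.6%, 7.72% and 7.93%. The median number of CpG dinucleotides per window was 16 in the rises, 10 in those of at least 8-fold, 20 in the falls and 15 over all windows. Among uncalled genes at or above the median level the kB consensus was in 10% and TATAAA in 1.31%. These shares are descriptions of letters and carry no test.

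Of the 25 largest rises 14 had a window, and 5 of these, Cxcl10, Cxcl1, Gbp5, Cxcl2 and Fos, held the kB consensus, while Il1b, Il1a, Tnf, Acod1 and Fos held TATAAA. The 110 bases before the start are shown for the 4 genes whose consensus lies there, with it in capitals, because they let the shared site of the neighbouring chemokine genes Cxcl1 and Cxcl2 be seen.
Cxcl10: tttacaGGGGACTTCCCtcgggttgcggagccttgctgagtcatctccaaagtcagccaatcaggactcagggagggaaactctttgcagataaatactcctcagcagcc
Cxcl1: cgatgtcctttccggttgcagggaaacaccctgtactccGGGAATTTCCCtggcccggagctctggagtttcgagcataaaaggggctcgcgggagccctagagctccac
Cxcl2: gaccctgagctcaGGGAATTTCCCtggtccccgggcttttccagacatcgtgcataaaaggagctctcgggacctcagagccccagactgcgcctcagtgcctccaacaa
Gbp5: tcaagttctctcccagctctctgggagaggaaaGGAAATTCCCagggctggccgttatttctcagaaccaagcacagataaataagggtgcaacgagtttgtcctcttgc
Cxcl1 (chr5:90891135-90891244, plus strand) and Cxcl2 (chr5:90903789-90903898, plus strand) carry the same 11 letters in capitals, where the consensus matches on both strands, 71 to 61 and 97 to 87 bases before their starts. In Cxcl10 (chr5:92348890-92348999, minus strand) the match lies 104 to 94 bases before the start, and in Gbp5 (chr3:142496824-142496933, plus strand) 77 to 68 bases before it. In the values, Cxcl1 and Cxcl2 rose by 5.51 and 4.62 from unstimulated levels of 7.11 and 7.11 and of 8.97 and 8.6.

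The position of called genes relative to one another was counted as a description, with no test. In the RefSeq gene order 131 of 604 called rises (21.7%) had a next gene on either side that was also called higher, against 5.88% of all 19855 genes placed. For called falls the share was 23.6% of 1172, against 11.2%. Runs of 3 or more consecutive rises included Gbp5, Gbp7, Gbp3 and Gbp2b on chromosome 3, Il1a, Il1b and Il1bos on chromosome 2, Ccl3, Ccl4 and Wfdc17 on chromosome 11, and the lectin genes Clec4n, Clec4d and Clec4e on chromosome 6. The class II antigen presentation genes H2-Ab1, H2-Aa and H2-Eb1 on chromosome 17 formed a run with rises of 1.23 to 1.99. Other runs held olfactory receptor genes, the family used for background. These were Ifi205, Olfr433 and Olfr432 (1.02 to 2.22), and Gm5244, Olfr1444 and Olfr1445 (0.74 to 1.76). Further runs were Lsmem1, Ifrd1 and Gm7008, then Gm5129, Dnajb6 and Il6, and Opa3, Vasp and Ppm1n. Neighbours that share sequence, overlap or are read through from one another can share signal on these arrays, and their part in these shares was not tested.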

How the data were processed

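RNA of 12 macrophage cultures' fractions (6 groups of 2 arrays) was read on the Mouse Gene ST 1.0 array of Affymetrix. From 200 ng of total and 100 ng of nascent RNA, random-primed amplification was used, per the labels' protocols. The deposited values are linear intensities made by the authors, and per the submitters' processing notes RMA and the Affymetrix Expression Console were used. Their versions are not given in these sources. RMA assumes like distributions across arrays, but the deposited values differed in spread. Their interquartile range (log2) was 3.004 in unstimulated nascent array 2 and 2.238 in 45 min nascent array 2. The main tests used these values without further scaling, so differences in spread were carried into the calls. Shifts of all genes are not measured, since the RNA input was fixed at 100 ng for nascent and 200 ng for total RNA. The planned tests had assumed log2 values, so log2 was taken.

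Of 35557 probe sets, 21789 carried 1 gene symbol, 1621 several and 12147 none; where a gene had several probe sets (999 genes) the brightest over the 12 arrays was kept. Of the named probe sets 21698 matched RefSeq (GRCm38.p6), and 0 symbols changed. The 12 arrays were fitted with a mean per group in limma 3.58.1 (R 4.3.3; eBayes with an intensity trend, 6 residual and 7.4 prior degrees of freedom, Benjamini-Hochberg over 19938 genes). Nascent minus total differences (6) were fitted alike. Both fits were run on simulated data with known changes. The simulated arrays were independent and alike in spread, with no link between the fractions of a culture. The simulation therefore cannot show how the real differences in spread between arrays affect the calls. The arrays' number limits the precision, and no statement was found that the cultures of an experiment came from separate animals, so p-values measure the spread between these arrays. Tables and figures were made with Python 3.11.15, pandas 2.3.3 and matplotlib 3.10.9.

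The labels state 2 independent experiments, so the experiment number pairs the arrays. Deviations from the group means correlated at -0.05 between unstimulated and 45 min nascent arrays, and at -0.29 to 0.64 over all group pairs.

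The members and lists were chosen with earlier results of these data known. Named by rule were the 25 largest rises and 15 largest falls moving one way in each experiment and at or above the median level in their higher group, up to 5 called members per list, and the 6 largest nascent minus total differences each way. Further genes named are list members or neighbours chosen after their values were seen. Alternatives were the block, 2 scalings, a filter on dim genes, probe set means, no trend, fewer arrays, a 2-fold threshold and leaving out each array.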

Additional observations from a re-analysis of the deposited data

Results flagged for a closer look

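The response to LPS was set in nascent against total RNA of the same cultures, and the results here are those where limma's test of that difference passed an adjusted p of 0.05. In all, 95 genes responded higher in nascent RNA (0.476% of those tested) and 113 lower (0.567%). Quantile scaling within each fraction gave 42 and 15, and the counts rest on single cultures, as given above. The named genes with the larger nascent response were Saa3, with a nascent minus total difference of 2.83 (adjusted p = 4.24e-06), Med21 with 2.63, Gbp2b with 2.5, Srgn with 2.47 (adjusted p = 8.31e-05 for these 3), Fabp3 with 2.42 (adjusted p = 0.00115) and Ccl2 with 2.3 (adjusted p = 0.000947). Those with the smaller or more negative nascent response were Tifab with -2.1 (adjusted p = 0.00271), Zfp637 with -2.09 (0.00213), Timm21 with -2.06 (0.00926), Trem2 with -1.99 (0.0438), Echs1 with -1.91 (0.0135) and Aga with -1.9 (0.00444).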

How the results depend on the processing

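The counts of called genes moved under several alternatives. Against 609 rises and 1172 falls at 45 min, the experiment as a block (the pairing in the labels) gave 1838 falls, the threshold of at least 2-fold gave 403 and 625, and leaving out 1 array gave 343 to 539 rises and 256 to 1510 falls. For the nascent minus total response, with 95 and 113 called, the block gave 289 and 816, quantile scaling 42 and 15, and median centring 44 higher, while leaving out 1 culture gave 0 to 380 and 0 to 1350. No called gene among those named changed sign under these alternatives. Leaving out an array could not change a sign, because the groups of every called gene did not overlap. Most named genes were also picked for large changes on these same arrays. Of 195 named genes, 179 were called and 119 of them were called in every alternative run. The block changed no call among the 195. Calls were lost by 18 named genes without unstimulated array 1, 40 without unstimulated array 2, 40 without 45 min array 1 and 47 without 45 min array 2. Of the 609 rises and 1172 falls, 272 and 185 were called in every alternative other than the filter on dim genes. Signal over background limits 8117 genes that were under it in both groups.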
